A study of Mus musculus with 8 samples.

Results

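The module set out here holds the genes of the integrated stress response that follow the transcription factor ATF4 and the genes of the unfolded protein response of the endoplasmic reticulum (ER). Its members were chosen by gene symbol from a list of 45 symbols. The 45 symbols matched 46 of the 56980 gene entries in the deposited count table, because Ddit3 had 2 entries. The ATF4 arm took 27 entries (regulators, amino acid and one-carbon synthesis enzymes, amino acid transporters and tRNA synthetases), and the ER arm took 19 (stress sensors with Xbp1, chaperones and folding enzymes, and genes of ER-associated degradation). Of the 46 entries, 43 had enough reads to be tested, which were 24 of the ATF4 arm and all 19 of the ER arm. The second Ddit3 entry (ENSMUSG00000116429.2, 1 to 5 counts in each library), Vldlr (2 to 18 counts) and Pycr1 (1 to 8 counts) were not tested.

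The data were 3′ mRNA sequencing counts from mouse bone-marrow-derived macrophages, which are macrophages grown from marrow cells with the growth factor M-CSF. There were 4 libraries from GrnKO cells, which lack progranulin (Grn, a secreted and lysosomal protein), and 4 from WT cells, all on the strain labelled C57/Bl6. Every culture of both genotypes had received M-CSF at 50 ng/mL and the solvent DMSO, and was kept for 3 days after thawing of the differentiated cells. Each biological replicate was made from the pooled bones of several mice, so a value is an average over animals, and neither the knockout allele nor the age and sex of the mice was given in the sources used here.

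Library totals ran from 5828180 to 7944860 counts in GrnKO and from 7413220 to 8768770 counts in WT, with RNA integrity numbers of 9.9 to 10 in both groups. Levels are given in CPM, the counts of a gene relative to its library total after scaling for library composition. Grn had 14.4, 13.0, 13.6 and 13.0 CPM in GrnKO replicates 1 to 4, against 1436, 1498, 1700 and 2027 CPM in WT replicates 1 to 4. Its log2 fold change (GrnKO over WT throughout) was -6.95 ± 0.15 (SE, adjusted p = 4.15e-10, edgeR). All 8 macrophage markers were present, with summed levels of 6150 to 7805 CPM in GrnKO and 5267 to 9305 CPM in WT, but 7 of the 8 had lower fitted levels in GrnKO. The groups did not overlap in 4 lower markers (Adgre1, Itgam, Fcgr1 and Cd14) and in 1 higher marker (Cd68), and none of the 8 was called (smallest adjusted p = 0.05002, for Adgre1, edgeR). The 8 neutrophil markers summed to 13.8 to 26.4 CPM in GrnKO and 43.7 to 154 CPM in WT. The 3 of them that could be tested (S100a8, S100a9 and Ngp) were all called lower in GrnKO. Their log2 fold changes ran from -2.73 to -2.04 (adjusted p from 0.0015 to 0.033, edgeR). Markers of B cells, T cells, dendritic cells and fibroblasts summed to at most 2.3 CPM for each type in any library, and Trac, a T cell receptor gene, was at 0 in all 8. The part of neutrophil content and of macrophage marker levels in the results below was not tested. A gene is called here when its adjusted p (Benjamini-Hochberg over all 12186 tested genes, edgeR's quasi-likelihood test) is under 0.05. By this rule 340 genes of the whole table were above WT and 178 below it, and without scaling for library composition the split was 281 above and 281 below.

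In the integrated stress response, kinases that sense amino acid shortage, viral RNA, haem shortage or misfolded ER proteins phosphorylate the translation factor eIF2. General translation then slows while the mRNA of Atf4 is translated better, and ATF4 protein switches on genes for amino acid uptake, amino acid synthesis and tRNA charging. In the unfolded protein response the ER sensors PERK, IRE1 and ATF6 raise chaperones and degradation factors, with PERK feeding into ATF4. These steps run through phosphorylation, translation, splicing and protein cleavage, which counts of 3′ ends do not measure.

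Across both arms, 1 of the 43 tested members was called, and it was higher in GrnKO. This was Sars, the seryl-tRNA synthetase, in the ATF4 arm. No member was called lower. Over all tested genes 4.25% were called, 2.79% higher and 1.46% lower, so the module's share was not above the background. At an unadjusted p under 0.05 there were 8 higher members and 1 lower member of 43, while 8.85% of all tested genes were higher and 8.79% lower at that level. In 6 members every GrnKO library lay above every WT library (Ppp1r15a, Sars, Pdia4, Calr, Canx and Sel1l), and in no member did every GrnKO library lie below. Over all tested genes the groups did not overlap in 12.0%, with GrnKO higher in 6.88% and lower in 5.10%. No member differed by more than 2-fold.

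**Figure D1:**
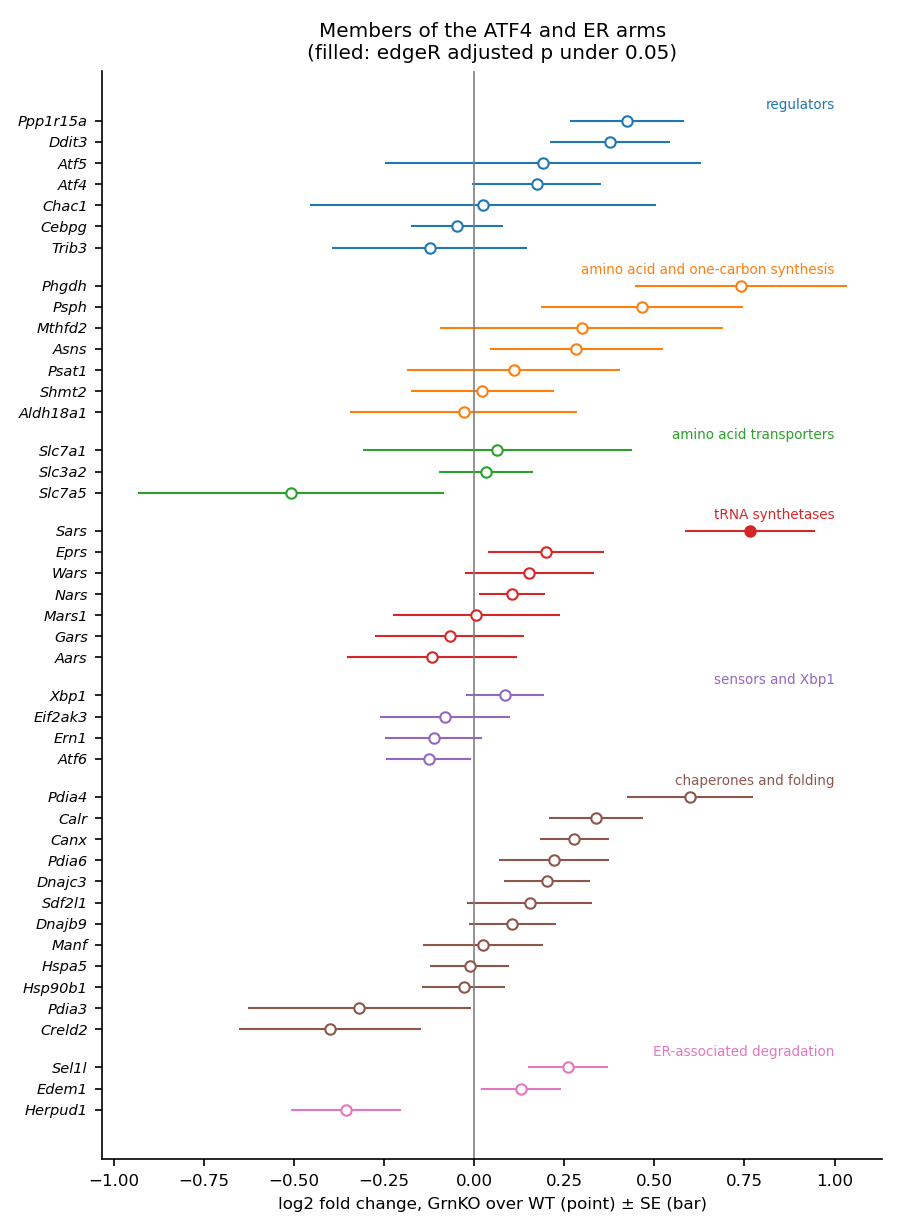
Log2 fold change, GrnKO over WT, of the 43 tested members, with bars for the SE from edgeR and 4 libraries in each genotype, grouped by role. The filled point is Sars, at 0.77, and the other 42 members, from -0.51 to 0.74, are open because they were not called.

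The regulators of the ATF4 arm did not pass the test. Atf4 itself had 348, 373, 352 and 406 CPM in GrnKO, against 444, 352, 296 and 218 CPM in WT. The GrnKO libraries sat close together inside the range of the WT libraries, of which replicate 1 was the highest and replicate 4 the lowest. The log2 fold change of Atf4 was 0.17 ± 0.18 (SE, adjusted p = 0.67), with a 95% interval from -0.22 to 0.57. Ddit3, which encodes the transcription factor CHOP, had 44.7, 65.7, 46.7 and 61.7 CPM in GrnKO and 51.2, 40.4, 42.9 and 33.8 CPM in WT. Only WT replicate 1 reached into the GrnKO range, and the log2 fold change was 0.38 ± 0.17 (adjusted p = 0.27). The strand setting of the counting was not given in the sources used here. The annotated Ddit3 locus overlaps Mars, the earlier symbol of the member Mars1, on the other strand. The same holds for Ppp1r15a with Tulp2, Shmt2 with Ndufa4l2, Psph with Cct6a and Pdia6 with Atp6v1c2. It also holds for Manf with Dcaf1, Farsb with Sgpp2 and Spcs1 with Glt8d1. On the same strand, Aars overlaps Exosc6 and Manf overlaps Rbm15b. Non-coding entries also overlap members on the same strand, which are Gm15344 and Gm25745 with Hsp90b1, Mir704 with Pdia4 and Gm44836 with Cebpg. Further non-coding overlaps on the other strand are not listed. Ppp1r15a, which encodes GADD34, the subunit that brings a phosphatase to eIF2 and so ends the response, had 14.6, 12.6, 14.3 and 12.9 CPM in GrnKO and 10.7, 9.04, 8.94 and 11.8 CPM in WT. Its groups did not overlap, and the difference of 0.42 ± 0.16 on the log2 scale missed the threshold (adjusted p = 0.18). Trib3, a pseudokinase that restrains ATF4, averaged 11.0 ± 2.1 CPM in GrnKO and 11.9 ± 4.6 CPM in WT (SD, n = 4 each). Cebpg, a dimer partner of ATF4, averaged 54.5 ± 8.8 CPM in GrnKO and 56.3 ± 1.8 CPM in WT. Chac1, an enzyme that breaks down glutathione, was close to the detection limit, with 7 to 23 counts in GrnKO and 6 to 25 counts in WT.

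Atf5, a transcription factor related to ATF4, had 90.8, 71.4, 77.3 and 93.9 CPM in GrnKO and 52.0, 171, 36.1 and 33.2 CPM in WT. WT replicate 2 stood far above the other 3 WT libraries, all of which were below every GrnKO library. With all 8 libraries the log2 fold change was 0.19 ± 0.44 (adjusted p = 0.88), without WT replicate 2 it was 1.04 (adjusted p = 0.011), and without WT replicate 3 or 4 it was -0.03 or -0.05. Atf5 overlaps Il4i1 and Nup62 on the other strand. Pdia3, an ER disulfide isomerase of the other arm, showed the same library apart, with 168, 135, 142 and 144 CPM in GrnKO and 145, 353, 114 and 122 CPM in WT, and it overlaps Catsper2 on the other strand. These 2 genes are set side by side after their values were seen.

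None of the 7 tested genes for amino acid and one-carbon synthesis was called, and 6 of the 7 had positive fold changes (median log2 0.28, against -0.03 over all tested genes). Phgdh, Psat1 and Psph act in sequence to make serine from a glycolytic intermediate. Phgdh had 17.4, 16.2, 14.6 and 22.7 CPM in GrnKO and 18.2, 10.2, 7.17 and 6.67 CPM in WT. WT replicate 1 lay within the GrnKO range and the other 3 WT libraries lay below it. The log2 fold change was 0.74 ± 0.29 (adjusted p = 0.21), and it became a call without WT replicate 1 (1.14, adjusted p = 0.0082). Psph had 18.9, 18.1, 17.1 and 27.8 CPM in GrnKO and 23.4, 14.8, 12.7 and 8.17 CPM in WT, a log2 fold change of 0.47 ± 0.28 (adjusted p = 0.42). Psat1 had 82.8, 78.5, 64.2 and 96.4 CPM in GrnKO and 127, 70.3, 63.6 and 36.6 CPM in WT. In Psat1, as in the other 2 serine enzymes, replicate 1 was the highest and replicate 4 the lowest WT library. Asns, which makes asparagine and is a classical ATF4 target, had 19.7, 20.6, 21.4 and 29.2 CPM in GrnKO and 27.7, 19.2, 15.7 and 11.8 CPM in WT. The GrnKO libraries again fell within the WT range, apart from GrnKO replicate 4 just above it (0.28 ± 0.24, adjusted p = 0.59).

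Mthfd2, a mitochondrial enzyme of the folate cycle that carries one-carbon units, had 71.8, 86.3, 75.3 and 118 CPM in GrnKO and 141, 55.0, 64.2 and 25.2 CPM in WT. Its highest WT library was 5.60 times its lowest, against 1.65 times in GrnKO, so its fold change was poorly fixed (0.30 ± 0.39). Shmt2, the mitochondrial enzyme that takes one-carbon units from serine, averaged 20.0 ± 3.3 CPM in GrnKO and 19.6 ± 5.4 CPM in WT. Aldh18a1, which starts proline synthesis, averaged 8.29 ± 2.85 CPM in GrnKO and 8.49 ± 3.16 CPM in WT.

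The 3 amino acid transporters did not pass the test either. Slc7a5, the light chain of the large neutral amino acid exchanger, had 19.4, 18.5, 21.8 and 25.1 CPM in GrnKO and 45.3, 47.3, 20.1 and 7.63 CPM in WT. WT replicates 1 and 2 lay above all GrnKO libraries and WT replicate 4 below them, and the log2 fold change was -0.51 ± 0.42 (adjusted p = 0.58). Slc3a2, the heavy chain that pairs with it, had 230, 305, 244 and 210 CPM in GrnKO and 269, 213, 231 and 254 CPM in WT. The groups overlapped throughout (0.03 ± 0.13). Slc7a1, a transporter of arginine and other cationic amino acids, had 37.4, 40.5, 40.4 and 53.4 CPM in GrnKO and 77.5, 38.6, 33.5 and 14.2 CPM in WT, so the WT libraries spanned the GrnKO ones on both sides.

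Sars was the 1 called member. It had 158, 170, 221 and 287 CPM in GrnKO (957 to 2255 counts) and 136, 106, 133 and 118 CPM in WT (865 to 1243 counts). Every GrnKO library was above every WT library, with GrnKO replicates 3 and 4 the highest. The level was 1.70-fold that of WT, a log2 fold change of 0.77 ± 0.18 (SE, 95% interval 0.37 to 1.16, adjusted p = 0.036). The call did not hold without GrnKO replicate 2, 3 or 4, or without WT replicate 2 or 3, where adjusted p ran from 0.053 to 0.11. It was also lost without scaling for library composition (adjusted p = 0.062). The other 6 tRNA synthetases of the module had log2 fold changes from -0.12 to 0.20 and overlapping groups. Nars, the asparaginyl enzyme, averaged 548 ± 30 CPM in GrnKO and 510 ± 34 CPM in WT, and Wars, the tryptophanyl enzyme, averaged 13.6 ± 1.7 CPM in GrnKO and 12.2 ± 2.4 CPM in WT. Aars, the alanyl enzyme, averaged 45.9 ± 9.7 CPM in GrnKO and 49.7 ± 16.9 CPM in WT, and Gars, the glycyl enzyme, averaged 39.1 ± 5.4 CPM in GrnKO and 41.0 ± 12.9 CPM in WT. Mars1, the methionyl enzyme, averaged 26.5 ± 5.3 CPM in GrnKO and 26.4 ± 8.9 CPM in WT. Eprs, which charges tRNAs for both glutamate and proline, averaged 121 ± 20 CPM in GrnKO and 105 ± 21 CPM in WT. For Nars the 95% interval, from -0.10 to 0.31, lay within a 1.5-fold change either way.

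Promoter sequences were searched for the C/EBP-ATF element, the site at which ATF4 binds with a C/EBP partner, written as TGATGNAA on either strand. The window was the 250 bases upstream of the RefSeq start, and 40 of the 45 symbols matched, with 44 promoters. Of 27 promoters of the ATF4 arm, 6 held it (22.2%: Aars, Asns, Chac1, Gars, Pycr1 and Vldlr). Of 17 promoters of the ER arm 1 held it (Herpud1), and of all 32851 promoters 3.45% did. Asns and Gars are shown because they hold the element within the last 30 bases or so before the start, and Sars because it was the called member and these letters were not in its window. All 3 are from RefSeq (GRCm38.p6) and read 5′ to 3′ towards the start, with the element in capitals. They lie at chr6:7693210-7693459 on the minus strand (Asns), chr6:55037751-55038000 on the plus strand (Gars) and chr3:108445260-108445509 on the minus strand (Sars).
Asns: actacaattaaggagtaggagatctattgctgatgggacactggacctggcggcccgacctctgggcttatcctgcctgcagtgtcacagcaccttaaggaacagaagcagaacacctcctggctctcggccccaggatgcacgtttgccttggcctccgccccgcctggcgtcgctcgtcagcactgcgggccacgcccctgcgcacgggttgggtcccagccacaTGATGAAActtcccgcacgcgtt
Gars: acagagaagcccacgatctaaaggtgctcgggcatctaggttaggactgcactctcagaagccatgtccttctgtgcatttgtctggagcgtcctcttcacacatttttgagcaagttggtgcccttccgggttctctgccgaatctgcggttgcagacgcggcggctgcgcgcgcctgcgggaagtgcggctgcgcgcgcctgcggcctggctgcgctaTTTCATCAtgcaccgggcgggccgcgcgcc
Sars: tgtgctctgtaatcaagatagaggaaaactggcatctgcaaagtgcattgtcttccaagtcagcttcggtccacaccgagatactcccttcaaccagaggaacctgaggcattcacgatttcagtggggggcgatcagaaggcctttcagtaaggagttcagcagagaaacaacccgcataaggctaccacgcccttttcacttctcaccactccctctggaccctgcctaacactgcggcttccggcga
Asns carries the element 23 bases and Gars 30 bases upstream of the start. Neither gene was called (Asns 0.28 ± 0.24 and Gars -0.07 ± 0.21 on the log2 scale). Sites outside the window or with other letters were not searched, and the part of the element in the levels of these genes was not tested.

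**Figure D2:**
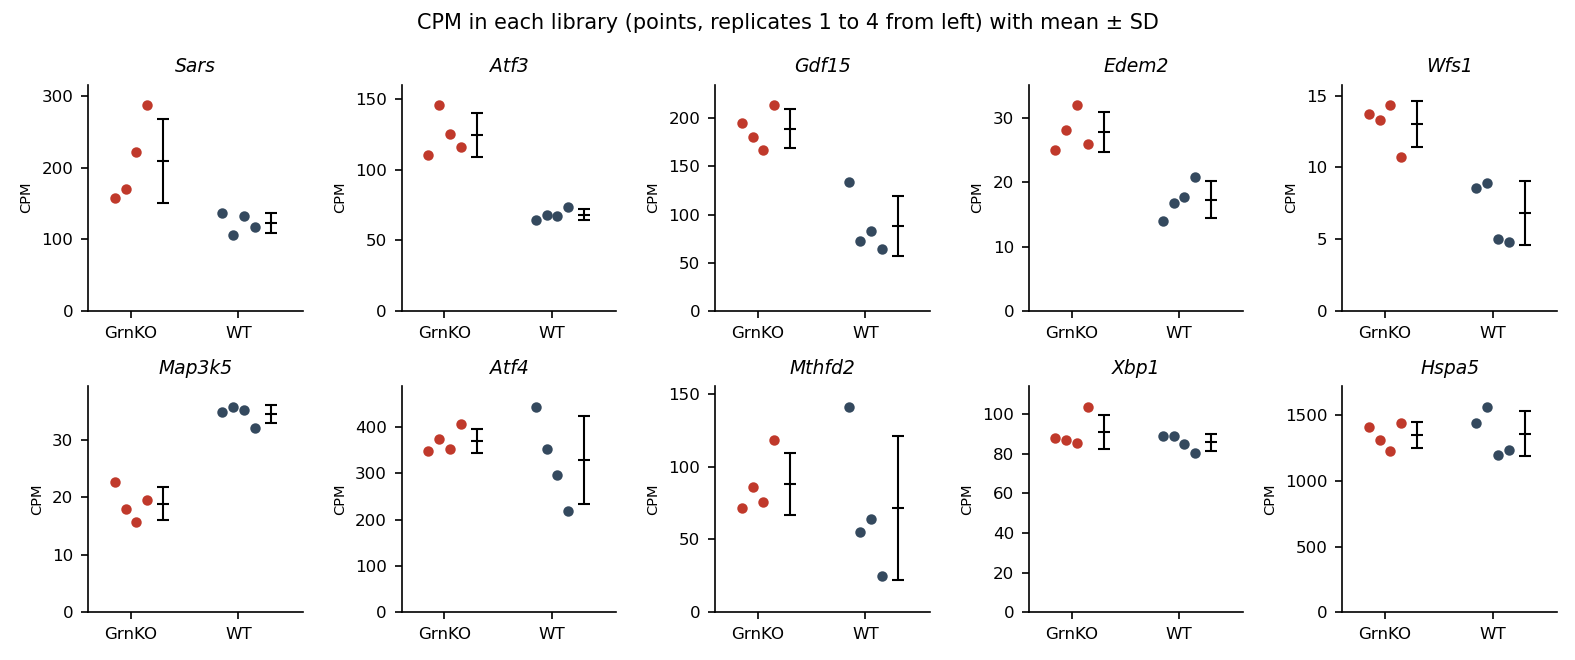
CPM in each GrnKO (left in each panel) and WT (right) library, with mean ± SD beside the points, for 5 called genes that were higher in GrnKO, Map3k5, which was lower, and 4 uncalled members. The GrnKO and WT points of Sars, Atf3, Gdf15, Edem2, Wfs1 and Map3k5 do not overlap, and those of Atf4, Mthfd2, Xbp1 and Hspa5 do.

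In the ER arm, none of the 19 members was called. The sensors and their main effector were at similar levels in both genotypes. Eif2ak3, which encodes PERK, had 20.8, 16.2, 21.4 and 16.9 CPM in GrnKO and 14.2, 23.7, 22.2 and 19.6 CPM in WT (log2 fold change -0.08 ± 0.18). Ern1, which encodes IRE1, had 43.5, 46.0, 44.5 and 37.8 CPM in GrnKO and 40.5, 51.6, 53.5 and 40.0 CPM in WT (-0.11 ± 0.13). Atf6 had 83.2, 72.2, 74.0 and 64.3 CPM in GrnKO and 84.3, 86.2, 79.3 and 70.7 CPM in WT (-0.13 ± 0.12). The groups overlapped in all 3 sensors. Xbp1, whose mRNA is spliced by IRE1 to give an active transcription factor, had 87.8, 87.0, 85.1 and 104 CPM in GrnKO and 88.9, 89.0, 85.1 and 80.1 CPM in WT. GrnKO replicate 4 was the highest and the other 7 libraries were close together (0.08 ± 0.11, adjusted p = 0.75). The 95% intervals of all 4 lay within a 1.5-fold change either way, the widest being that of Eif2ak3, from -0.48 to 0.32. Spliced and unspliced Xbp1 were not told apart in these counts.

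Among the 12 chaperones and folding enzymes, 8 had positive fold changes, with a median log2 of 0.13. Hspa5, the central ER chaperone BiP and the usual readout of ER stress, had 1408, 1310, 1226 and 1442 CPM in GrnKO and 1439, 1564, 1199 and 1232 CPM in WT. The GrnKO libraries all lay inside the WT range, and the log2 fold change was -0.01 ± 0.11 (95% interval -0.25 to 0.23, adjusted p = 0.97). Hsp90b1, the ER member of the HSP90 family, had 625, 632, 647 and 798 CPM in GrnKO and 666, 783, 705 and 603 CPM in WT (-0.03 ± 0.12). GrnKO replicate 4 was the highest of the 8 and the others overlapped. Dnajb9, a co-chaperone of BiP and a target of spliced XBP1, averaged 60.0 ± 7.1 CPM in GrnKO and 55.8 ± 4.3 CPM in WT. Dnajc3, another co-chaperone of BiP, averaged 125 ± 10 CPM in GrnKO and 109 ± 13 CPM in WT. Manf, a secreted ER stress protein, averaged 84.9 ± 12.7 CPM in GrnKO and 83.4 ± 18.2 CPM in WT. Neither Sdf2l1 (66.7 ± 13.1 CPM in GrnKO and 60.0 ± 11.6 CPM in WT) nor Creld2 (9.27 ± 1.84 CPM in GrnKO and 12.2 ± 4.1 CPM in WT), both ER proteins induced by ER stress, was called.

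Pdia4, a disulfide isomerase that forms and rearranges disulfide bonds of folding proteins, came nearest to the threshold in this arm. It had 33.1, 35.9, 30.8 and 33.6 CPM in GrnKO and 29.4, 16.4, 22.9 and 19.1 CPM in WT. Every GrnKO library was above every WT library, and WT replicate 1 was the nearest (0.60 ± 0.17, adjusted p = 0.084). Without WT replicate 1 it was called (0.78, adjusted p = 0.0083), and DESeq2 also called it. Canx, the membrane lectin chaperone calnexin, had 674, 659, 677 and 655 CPM in GrnKO and 548, 475, 568 and 606 CPM in WT. The GrnKO libraries were nearly level and all above WT (0.28 ± 0.10, adjusted p = 0.15). Calr, its soluble relative calreticulin, had 418, 455, 427 and 570 CPM in GrnKO and 409, 411, 342 and 317 CPM in WT. Here too the groups did not overlap, by a narrow margin between GrnKO replicate 1 and WT replicate 2 (0.34 ± 0.13, adjusted p = 0.20). Pdia6, a further disulfide isomerase, averaged 425 ± 33 CPM in GrnKO and 364 ± 88 CPM in WT, and was called without WT replicate 1 (0.40, adjusted p = 0.048).

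The same promoter windows were searched for the ER stress element, CCAAT, then any 9 bases, then CCACG, on either strand, and for the UPR element TGACGTGG. The ER stress element was in 7 of 17 promoters of the ER arm (41.2%: Calr, Canx, Creld2, Dnajc3, Hsp90b1, Hspa5 and Pdia6), in none of 27 of the ATF4 arm and in 0.113% of all promoters. The UPR element was in none of either arm and in 0.563% of all promoters. Sites outside the window, or with other letters or another spacing, were not searched. Hspa5, Hsp90b1 and Calr are shown as promoters with the element, picked with their levels known. Hspa5 and Hsp90b1 differed little between the genotypes, while the groups of Calr did not overlap and it was not called. Capitals mark the whole element with its spacer. The windows are chr2:34771840-34772089 on the plus strand (Hspa5), chr10:86705445-86705694 on the minus strand (Hsp90b1) and chr8:84846932-84847181 on the minus strand (Calr), from RefSeq (GRCm38.p6).
Hspa5: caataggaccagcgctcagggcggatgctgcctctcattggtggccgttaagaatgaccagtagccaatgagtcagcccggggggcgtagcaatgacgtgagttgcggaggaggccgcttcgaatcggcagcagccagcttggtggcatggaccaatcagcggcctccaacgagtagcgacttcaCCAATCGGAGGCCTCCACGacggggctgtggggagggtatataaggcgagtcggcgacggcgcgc
Hsp90b1: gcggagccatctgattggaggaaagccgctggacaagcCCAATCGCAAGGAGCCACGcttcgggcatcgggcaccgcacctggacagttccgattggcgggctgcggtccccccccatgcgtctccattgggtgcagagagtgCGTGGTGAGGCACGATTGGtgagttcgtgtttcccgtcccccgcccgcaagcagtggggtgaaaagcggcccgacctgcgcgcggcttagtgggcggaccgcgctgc
Calr: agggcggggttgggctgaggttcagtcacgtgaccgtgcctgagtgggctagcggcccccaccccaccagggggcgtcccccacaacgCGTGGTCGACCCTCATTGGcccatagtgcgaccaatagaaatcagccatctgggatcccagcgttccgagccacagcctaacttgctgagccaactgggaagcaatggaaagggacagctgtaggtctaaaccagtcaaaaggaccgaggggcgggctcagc
The element starts 65 bases upstream of the start in Hspa5, 162 bases in Calr, and 212 and 107 bases in Hsp90b1, which holds it on both strands. None of the 7 genes with it was called, while 4.25% of all tested genes were called. Their log2 fold changes ran from -0.40 for Creld2 to 0.34 for Calr. In Calr and Canx every GrnKO library lay above every WT library, and in the others the groups overlapped. The part of the element in the levels of these genes was not tested.

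ER-associated degradation returns misfolded proteins to the cytosol for the proteasome. Sel1l, which holds the ubiquitin ligase HRD1 in place, had 261, 290, 266 and 252 CPM in GrnKO and 188, 219, 236 and 251 CPM in WT. Every GrnKO library was above WT, though GrnKO replicate 4 and WT replicate 4 were nearly equal (0.26 ± 0.11, adjusted p = 0.25). Herpud1, a stress-induced membrane protein of the same complex, had 111, 79.7, 90.8 and 90.1 CPM in GrnKO and 103, 105, 114 and 153 CPM in WT. It was the 1 member lower in GrnKO at an unadjusted p under 0.05 (-0.35 ± 0.15, adjusted p = 0.25), and GrnKO replicate 1 lay within the WT range. Edem1, a lectin that picks out glycoproteins for degradation, averaged 209 ± 6 CPM in GrnKO and 191 ± 25 CPM in WT.

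Set side by side, the arms had similar centres and different spreads. The median log2 fold change was 0.11 over the 24 tested members of the ATF4 arm and 0.08 over the 19 of the ER arm, against -0.03 over all tested genes. Without WT replicate 1 the median of the ATF4 arm was 0.31 and without WT replicate 4 it was -0.01, while without GrnKO replicate 4 that of the ER arm was 0.00. Fold changes were positive in 18 of 24 ATF4 members and 11 of 19 ER members, and in 45.8% of all tested genes. At an unadjusted p under 0.05 there were 4 of 24 ATF4 members, all higher, and 5 of 19 ER members, 4 higher and 1 lower. Over all tested genes 17.6% were under that level. The 95% interval of the fold change lay within 1.5-fold either way in 9 of 24 ATF4 members and 14 of 19 ER members, against 44.5% of all tested genes, and within 2-fold in 17 of 24 and all 19, against 79.6%. The median SD of log2 CPM between libraries was 0.24 in GrnKO and 0.49 in WT for the ATF4 arm, 0.14 in GrnKO and 0.19 in WT for the ER arm, and 0.19 in GrnKO and 0.28 in WT over all tested genes. The WT libraries were the more variable ones in 20 of 24 ATF4 members, 14 of 19 ER members and 70.1% of all tested genes. No test of the arms against each other was made, since genes of an arm are not replicates.

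**Figure D3:**
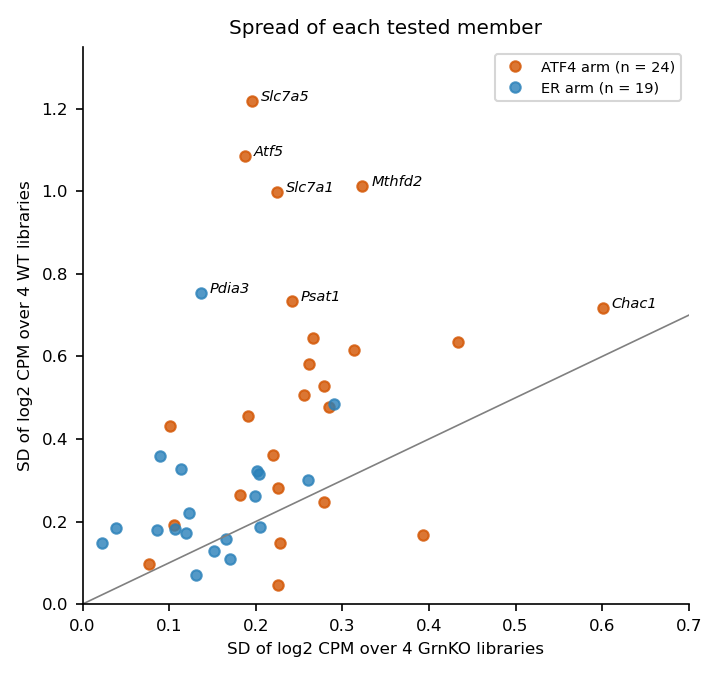
SD of log2 CPM over the 4 GrnKO libraries (horizontal) and over the 4 WT libraries (vertical) for each tested member of the ATF4 arm (n = 24) and the ER arm (n = 19), with a line of equal spread. Most ATF4 members lie above the line, up to Slc7a5, with an SD of 1.22 in WT and 0.20 in GrnKO, while most ER members lie near the lower left.

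The spread within WT had an order that many ATF4 members shared. WT replicate 1 was the highest WT library in 19 of 24 ATF4 members and WT replicate 4 the lowest in 19 of 24, including all 7 synthesis genes in both cases. In the ER arm these counts were 6 and 10 of 19, and over all 12186 tested genes 3898 and 3801. The mean log2 CPM of the 7 synthesis genes, relative to the WT mean, was 0.25, 0.23, 0.18 and 0.77 in GrnKO replicates 1 to 4 and 0.77, 0.08, -0.11 and -0.74 in WT replicates 1 to 4. GrnKO replicate 4 and WT replicate 1 were thus level at the top and WT replicate 4 was alone at the bottom. A list of 18 proliferation genes moved with it, with summed levels of 2485, 2205, 2226 and 3273 CPM in GrnKO and 4185, 2993, 2882 and 1609 CPM in WT. The highest library of each genotype and the lowest WT library were the same in both lists, and the part of proliferation in the levels of the ATF4 arm was not tested. In such bulk cultures, a difference in the share of cells that express a gene and a difference in RNA per cell cannot be told apart. The mean of the 12 chaperones varied less, at 0.12, 0.06, 0.04 and 0.26 in GrnKO and 0.17, 0.12, -0.08 and -0.21 in WT.

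**Figure D4:**
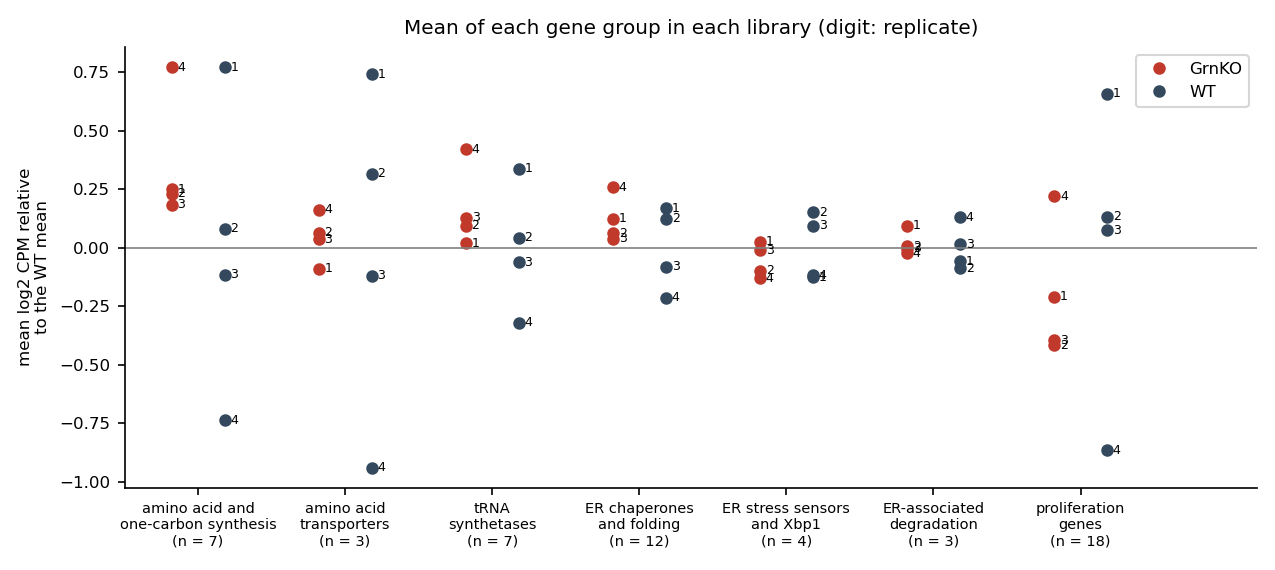
Mean log2 CPM of each group of members, and of 18 proliferation genes, in each GrnKO (left of each pair) and WT (right) library relative to the WT mean, with the replicate number beside each point. In the synthesis genes GrnKO replicate 4 and WT replicate 1 sit together at 0.77 and WT replicate 4 is lowest at -0.74, and in the proliferation genes the same WT libraries are at top and bottom.

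**Figure D5:**
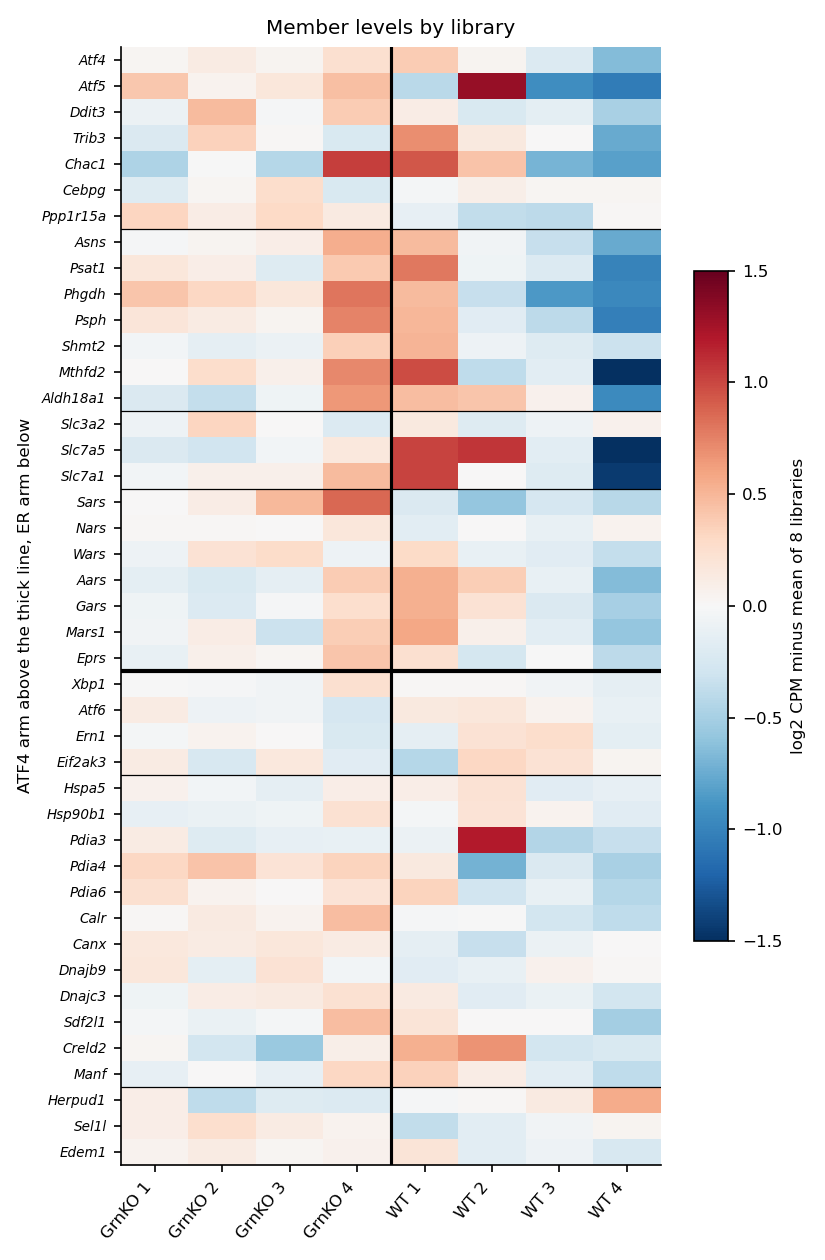
Log2 CPM of each tested member in each library minus its mean over the 8 libraries, GrnKO libraries left of the vertical line and WT libraries right of it, with the ATF4 arm above the thick line. In the ATF4 arm the column of WT replicate 1 is mostly high and that of WT replicate 4 mostly low, and Atf5 and Pdia3 stand out in WT replicate 2.

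The wider pathway was followed through 124 further gene entries, of which 115 could be tested. Here 4 were called higher and 1 lower in GrnKO, against the same background of 4.25%, and 65 of the 115 fold changes were positive. Among 20 tested further ATF4 targets, 2 were called, both higher. Atf3, a stress-induced transcription factor of the ATF family, had 111, 146, 126 and 116 CPM in GrnKO and 64.3, 68.0, 67.2 and 73.7 CPM in WT. Every GrnKO library was well above the closely grouped WT libraries (1.82-fold, log2 0.87 ± 0.12, adjusted p = 0.0015). Gdf15, a secreted stress cytokine, had 195, 181, 167 and 214 CPM in GrnKO and 134, 73.1, 82.4 and 64.7 CPM in WT. WT replicate 1 was the highest WT library and still below GrnKO (2.14-fold, log2 1.09 ± 0.20, adjusted p = 0.011). Both genes are known to answer to other stress signals as well as to ATF4. The median log2 fold change of these 20 targets was -0.02, and the other 18 were not called.

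None of the 13 other cytoplasmic tRNA synthetases was called (median log2 0.08). Sars was thus the 1 called gene among the 20 synthetases tested, while 4.25% of all tested genes were called. The nearest to the threshold were Farsb, a subunit of phenylalanyl-tRNA synthetase, at 77.0 ± 4.0 CPM in GrnKO and 63.3 ± 11.3 CPM in WT (adjusted p = 0.30), and Dars, the aspartyl enzyme, at 41.5 ± 6.9 CPM in GrnKO and 33.7 ± 4.4 CPM in WT (adjusted p = 0.33). None of the 16 genes for eIF2 kinases and the eIF2 complex was called. Eif2ak4, which encodes the amino acid sensor GCN2, averaged 21.8 ± 2.7 CPM in GrnKO and 16.0 ± 3.5 CPM in WT, with groups that did not overlap (0.45 ± 0.18, adjusted p = 0.23). Eif2ak2, which encodes the kinase PKR that senses double-stranded RNA, averaged 29.7 ± 5.5 CPM in GrnKO and 44.1 ± 19.7 CPM in WT (adjusted p = 0.30).

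On the ER side, 17 further genes of ER-associated degradation gave 1 call and 14 positive fold changes, with a median log2 of 0.09. The called gene was Edem2, a relative of Edem1 that trims mannose from glycoproteins, with 25.0, 28.2, 32.0 and 26.0 CPM in GrnKO and 14.0, 16.8, 17.7 and 20.8 CPM in WT. The groups did not overlap (log2 0.68 ± 0.15, adjusted p = 0.028), but the call was lost on leaving out any 1 GrnKO library or WT replicate 2 or 3. None of 22 further folding genes was called, the nearest being Prkcsh, the glucosidase II beta subunit, at 34.2 ± 4.7 CPM in GrnKO and 26.3 ± 0.6 CPM in WT (adjusted p = 0.14), and Hspa13, an HSP70 relative, at 34.0 ± 2.9 CPM in GrnKO and 26.3 ± 3.5 CPM in WT (adjusted p = 0.16). None of 14 genes of the translocon and signal peptidase was called, with Spcs1, a signal peptidase subunit, at 434 ± 26 CPM in GrnKO and 348 ± 21 CPM in WT (adjusted p = 0.083, and 0.017 with DESeq2, which called it) and Sec61b, a channel subunit, at 211 ± 25 CPM in GrnKO and 179 ± 10 CPM in WT (adjusted p = 0.29).

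Of 13 further ER stress regulators, 1 was called higher and 1 lower. Wfs1, the ER membrane protein wolframin, had 13.7, 13.3, 14.3 and 10.7 CPM in GrnKO and 8.54, 8.92, 5.03 and 4.77 CPM in WT. The groups did not overlap, and the difference only just passed (log2 0.92 ± 0.23, adjusted p = 0.0497). It was called in 6 of 17 alternatives, and was lost on leaving out any 1 GrnKO library or WT replicate 3 or 4, with median-of-ratios or no scaling factors, with a filter at a mean of 5 CPM, on the deposited log2 CPM and with the replicate block (adjusted p up to 0.15). Map3k5, which encodes ASK1, a kinase that carries stress signals to JNK and p38, had 22.6, 17.9, 15.7 and 19.5 CPM in GrnKO and 34.8, 35.8, 35.2 and 32.1 CPM in WT. All GrnKO libraries were below the tightly grouped WT libraries (0.55-fold, log2 -0.86 ± 0.14, adjusted p = 0.0043). Atf3, Gdf15 and Map3k5 were called under each of the 17 alternative settings at the 0.05 threshold.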

How the data were processed

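RNA from 4 GrnKO and 4 WT macrophage cultures was sequenced as 3′ mRNA libraries with molecular identifiers, per the labels' protocols. The deposited table of estimated counts was made with Salmon on GRCm39, per the submitters' processing notes, with no versions given in the sources used here, and 36.4% of its values were not whole to within 1e-06. A deposited log2 CPM table was used as an alternative only. The estimated counts were rounded, filtered with filterByExpr (12186 of 56980 entries kept) and fitted with edgeR 4.0.16 in R 4.3.3 (TMM factors, robust quasi-likelihood F test, genotype alone, Benjamini-Hochberg adjustment). An SE is the absolute log2 fold change over the root of F. List means used log2 CPM with a prior count of 2. The fit was tested on data simulated from its own model, with the same spread in both genotypes. The wider spread of the WT libraries was not part of that simulation. Alternatives were other scalings and filters, DESeq2 1.42.0, limma 3.58.1, a replicate block and each library left out. The labels call the samples biological replicates. The p-values weigh the difference between genotypes against the spread between these replicates within a genotype.

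Members and lists were chosen with earlier results of these data known. Values in every library are given for called members, for Atf4, Ddit3, Asns, Xbp1, Eif2ak3 and Hspa5, and in each role group without a call for the 2 members with the smallest p; others were added after their values were seen. Of each further list, up to 4 called genes or else the 2 with the smallest p are named. A value of 1 further pathway gene is not reported here. Overlaps are from GENCODE M21 (GRCm38).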

Additional observations from a re-analysis of the deposited data

Results flagged for a closer look

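In each group of 4 libraries, a value was singled out when its gap to the nearest other library, divided by the whole range, exceeded Dixon's 95% critical value for 4 values, which chance gives in about 1 of 20 groups. GrnKO replicate 4 was far above the other 3 GrnKO libraries in 7 members. Its levels were 27.8 CPM for Psph (others 17.1 to 18.9), 24.8 CPM for Shmt2 (others 17.8 to 18.9), 593 CPM for Nars (others 529 to 537) and 60.3 CPM for Aars (others 39.4 to 42.1). In the ER arm they were 104 CPM for Xbp1 (others 85.1 to 87.8), 798 CPM for Hsp90b1 (others 625 to 647) and 86.2 CPM for Sdf2l1 (others 58.4 to 61.3). Over all 12186 tested genes GrnKO replicate 4 was singled out as high in 177 (1.45%). WT replicate 2 was far above the other WT libraries for Atf5, at 171 CPM (others 33.2 to 52.0), and for Pdia3, at 353 CPM (others 114 to 145). Among the further pathway genes reported here, WT replicate 2 was likewise far above the other WT libraries for Ganab, at 150 CPM (others 61.4 to 72.6), and Bax, at 136 CPM (others 15.9 to 18.7). WT replicate 1 was far above for Hyou1, at 124 CPM (others 69.1 to 73.8), Farsa, at 316 CPM (others 200 to 218), Ube2j1, at 123 CPM (others 90.4 to 93.6), and Lonp1, at 24.0 CPM (others 20.4 to 20.9), and far below for Creb3l2, at 10.8 CPM (others 18.1 to 18.4). WT replicate 3 was far below for Eif2ak4, at 10.7 CPM (others 17.1 to 18.1). In GrnKO, replicate 4 was far above for Tars, at 133 CPM (others 102 to 104), and Ssr2, at 64.8 CPM (others 56.6 to 57.7), and far below for Mbtps1, at 73.8 CPM (others 88.1 to 90.6), while replicate 1 was far above for Atf6b, at 72.5 CPM (others 52.0 to 54.4), and far below for Lars, at 64.9 CPM (others 79.9 to 81.8).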

How the results depend on the processing

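The number of members called higher was 1 in the reported fit. It was 0 without scaling factors, 3 with every gene that had a count in any library (Pdia4, Phgdh, Sars), 2 with DESeq2 (Pdia4, Sars), 0 on the deposited log2 CPM, 0 at an adjusted p under 0.01, and 0 to 4 on leaving out 1 library (4 without WT replicate 1). No setting called a member lower. Sars was called in 8 of the 17 alternatives at the 0.05 threshold. Genes called over all tested genes numbered 518, and 918 with every gene counted, 865 with DESeq2, 209 at 0.01, and 267 to 942 on leaving out 1 library. Leaving out WT replicates 1 and 4 together, chosen after seeing the data, gave 973 calls and 2 members (Pdia4, Phgdh). With the replicate block 220 genes and 0 members were called. Deviations from the group mean correlated at -0.07, -0.14, 0.15 and -0.39 between libraries of the same number, for numbers 1 to 4. Whether equal numbers mark a shared preparation was not given in the sources used here. These correlations cannot settle it, since deviations within a group are not independent. The median log2 fold change ran from -0.01 (without WT replicate 4) to 0.31 (without WT replicate 1) in the ATF4 arm and from 0.00 to 0.11 in the ER arm. Counting every fold change of members and named further genes under every alternative, 946 were the same. These kept a call, or stayed uncalled and within the SE of the reported value. A further 18 stayed uncalled but moved by more than the SE, 31 lost a call, 12 gained one and 0 called values changed sign. Depth limits Chac1, Vldlr and Pycr1. The cause of each change was not tested.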
